A study of Mus musculus with 3 samples.

Results

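The genes described here are those of the synaptic vesicle and of the SNARE membrane-fusion machinery: synaptotagmins, synapsins, syntaxins, VAMPs, SNAP proteins, complexins, SV2 proteins, syntaxin-binding proteins, Munc13 and RIM proteins, Doc2 proteins, synaptophysin, Bassoon, Piccolo and Nsf. They were chosen by name from the gene names printed with the array's probes. The rule took 124 probes of 76 genes. The array held 55681 probes that were not controls, and those matched to a gene stood for 22329 genes. For the contrast between neurotransmitter release and general membrane traffic, 39 genes were set down as release machinery, 24 as SNAREs and partners used in membrane traffic of most cells, 10 as other synaptotagmins and Doc2 proteins without a settled role as a release sensor, and 3 (Nsf, Snap91 and Unc13d) as neither.

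Expression was measured on 3 one-colour Agilent arrays, each with RNA of 1 primary culture of C57BL6/J mouse cerebrum taken at embryonic day 18. Cultures were treated from day 10 in vitro for 24 h with 1 mM valproate, an antiepileptic drug that also inhibits class I histone deacetylases, with 100 µM lamotrigine, an antiepileptic blocker of sodium channels, or with the DMSO vehicle alone. All 3 cultures carried 0.1% DMSO, so the vehicle is shared by the treated and the control culture. Per the labels, the comparison of the study was valproate with DMSO, and the lamotrigine array was made for other work on antiepileptic drugs. How many embryos were pooled for a culture is not given in the sources used here.

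Each treatment had 1 array. No difference below has a replicate check, no test between treatments could be made, and whether the spread between cultures would cover a difference is unknown. The error given is the technical one, from probes printed at least 10 times on each array, and it holds no spread between cultures. For the difference between the valproate and DMSO arrays this technical SD was 0.09 on the log2 scale over 265 probes, from 0.07 for bright probes (scaled signal over 400) to 0.24 for dim ones (under 25).

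Vesicles release transmitter when the vesicle SNARE Vamp2 pairs with Snap25 and Stx1a in the plasma membrane. Munc13 (Unc13) proteins prepare that complex, complexins hold it, synaptotagmins trigger it when calcium enters, and Nsf takes it apart afterwards. Bassoon, Piccolo and the RIM proteins form the active zone at which vesicles dock. Related syntaxins, VAMPs and SNAPs carry out fusion between the endoplasmic reticulum, Golgi, endosomes, lysosomes and plasma membrane in cells of all kinds.

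Levels are given as scaled signals, with the 75th percentile of each array set to 100, and can be set against each other only for 1 probe across arrays, since probes differ in brightness. A gene is described by its brightest probe. The probes that carry the main values are shown by the first 30 of their 60 bases, 5′ to 3′, with positions on mm9, the build of the files, whose gene models were not used here. The first 4 belong to the genes that differed most with valproate and the last 2 to the core release SNAREs. Capitals in the Snap25 probe mark a run of 20 bases, a CA repeat, that it shares with the probe used for Snap23. Of the other 5 probes, none shared more than 10 bases in a row with a probe of another gene of the set.
Stx11, chr10:12660488-12660547, minus strand: gtttatcctctctggaaagttccttggtgc
Syt17, chr7:125525530-125551561, minus strand, the 60 bases lying in pieces of this interval: aaacgccagcctagtattcacagtgttcgg
Syt7, chr19:10527150-10527209, plus strand: ggttttgtttagcttttctttgggaaaaca
Syt5, chr7:4491370-4491429, minus strand: cttcccacacagcttgactcctatgctgct
Snap25, chr2:136607709-136607768, plus strand: CACACACACACACACACACAaagtggattt
Vamp2, chr11:68905527-68905586, plus strand: agtgtgagagagaaagcaagctatttcctt

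Most of the machinery was measurable in these cultures. On all 3 arrays, 64 of the 76 genes were well above background, 33 of the 39 release genes and 22 of the 24 trafficking genes among them. Syt2, Syt8, Syt12, Syt14, Syt15, Stx19 and Unc13c were above background on none. Cplx3, Cplx4, Syt10, Sv2c and Stx11 were above background on 1 or 2 arrays. The arrays as a whole were alike in this respect, with 14506 to 15095 genes detected and no saturated probe of the set.

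The cultures matched their label as a mix of brain cells. All 15 neuron markers and all 12 astrocyte markers were detected on every array, while 5 of 10 microglia markers were detected on all 3 arrays and 5 on none. The summed scaled signal of the neuron markers was 41124 with valproate, 52897 with DMSO and 47038 with lamotrigine. The astrocyte sum was 26020, 48905 and 47544 in the same order, and 15947, 22910 and 21939 without its brightest gene, Aldoc. How far these sums differ depends on the scaling. When the arrays were scaled to their spike-in RNAs, every log2 difference from DMSO rose by 0.35 with valproate and by 0.20 with lamotrigine. Single neuron markers went both ways with valproate, 4 above DMSO and 11 below. The part of these shifts in the values below was not tested, and in RNA of whole cultures fewer neurons and less RNA per neuron cannot be told apart.

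With valproate, the set as a whole moved little. Its largest differences among genes detected on both the valproate and DMSO arrays lay in single synaptotagmins. Stx11, detected with valproate only and described below, was at least 3.30-fold over DMSO. Among the 65 genes that both of these arrays detected, Syt17 and Syt7 (2 genes) exceeded DMSO by 1.5-fold or more, and Syt5 (1 gene) fell short of it by as much. The same fold was passed by 6.25% of all 14346 genes upward and by 5.95% downward, so the set's counts stood below those shares. The remaining 62 genes lay between these limits. The median log2 difference of the set was 0.05, with an SD over genes of 0.32, beside -0.08 and 0.42 for all genes. Of the 65, Syt17 was 2-fold higher and 0 were 2-fold lower, beside 2.09% and 1.42% of all genes. The counts depend on the scaling: when the arrays were scaled to their spike-in RNAs, 13 members were 1.5-fold higher and 0 lower, beside 17.9% and 1.74% of all genes, and when each array was centred on its detected probes, 12 were higher and 0 lower, beside 14.3% and 2.18%. Those scalings moved the median of all genes by 0.35 and 0.28, and directions below are therefore also given against the median of all genes.

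**Figure D1:**
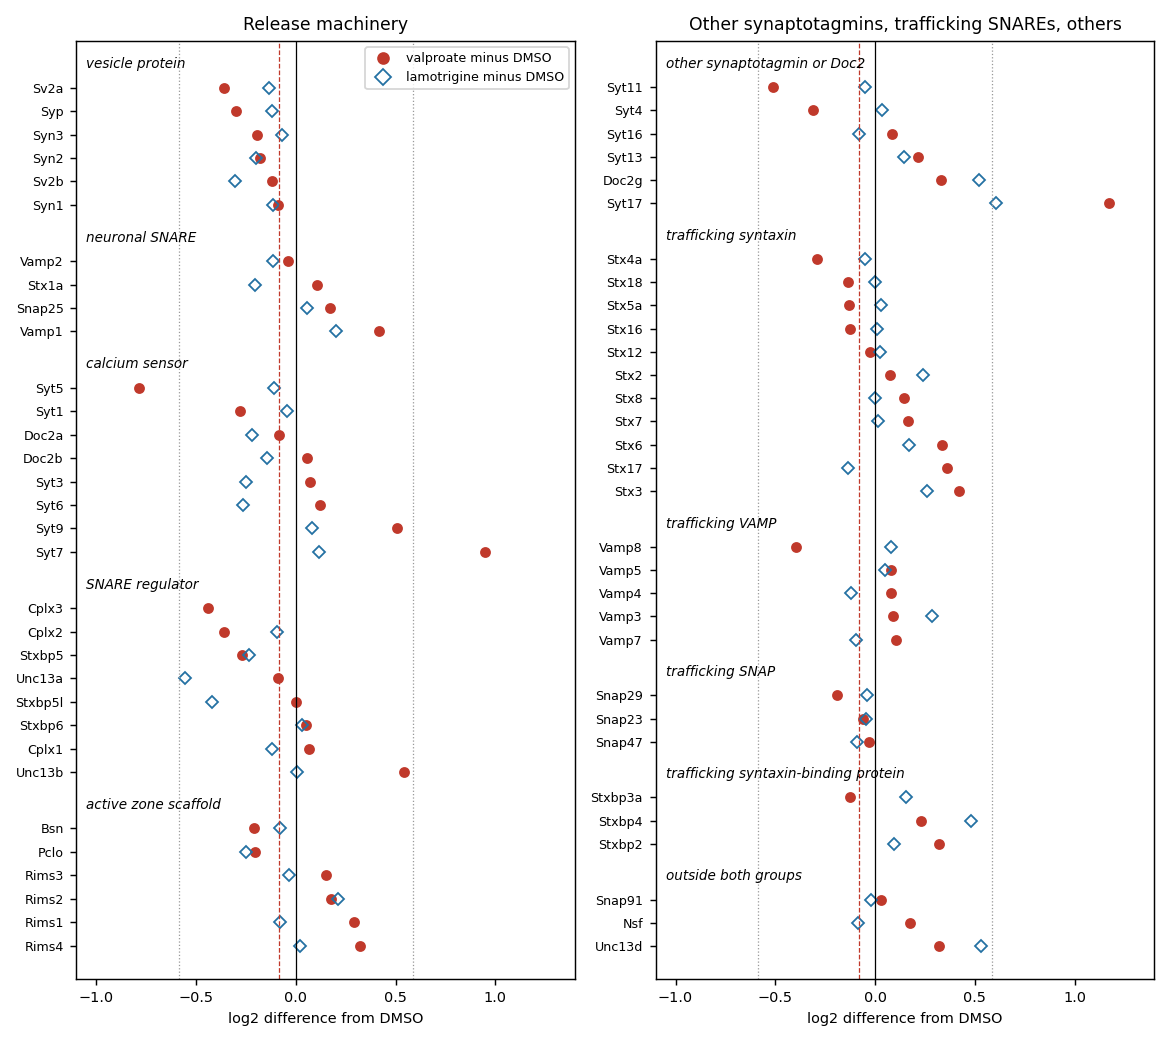
Log2 difference of the genes reported from the DMSO array, with valproate (filled circles) and lamotrigine (open diamonds), grouped by role. The dashed line is the median of all genes with valproate (-0.08) and the dotted lines are 1.5-fold. Syt17 and Syt7 lie beyond the upper line and Syt5 beyond the lower one with valproate, and Syt17 alone lies beyond a line with lamotrigine.

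Among the calcium sensors, which bind calcium and trigger fusion, valproate went with opposite differences in different synaptotagmins. Syt7, a high-affinity sensor of slow and asynchronous release, had a scaled signal of 64.9 with valproate, 33.6 with DMSO and 36.5 with lamotrigine. It was thus high on the valproate array alone, 1.93-fold over DMSO (log2 0.95, technical SD 0.12), a difference above that of 97.6% of all genes. A second, dimmer Syt7 probe was above background only with valproate, at least 1.66-fold over DMSO.

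Syt5, a calcium sensor found on secretory vesicles, stood at 2193 with valproate, 3782 with DMSO and 3505 with lamotrigine. The valproate array was the low one, 1.72-fold under DMSO (log2 -0.79, technical SD 0.07), and only 2.84% of all genes differed further downward. Syt1, the main fast sensor of forebrain synapses, stood at 2919, 3541 and 3438 in the same order, a log2 difference of -0.28 with valproate and -0.04 with lamotrigine. Syt9, a fast sensor of some forebrain neurons, stood at 109, 76.6 and 81.1, a log2 difference of 0.51 with valproate.

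Syt3 and Syt6, which bind calcium with high affinity, differed from DMSO by 0.07 and 0.12 with valproate. The Doc2 sensors of spontaneous release were also close to DMSO, Doc2a at -0.09 and Doc2b at 0.06. Syt10, known as a sensor for secretion of growth factor from neurons of the olfactory bulb, was dim, at 7.01 with valproate, 4.06 and below background with DMSO, and 10.0 with lamotrigine. Over the 8 calcium sensors measured, the median was 0.06 with an SD over genes of 0.51.

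The remaining synaptotagmins and Doc2g, most of which lack calcium binding, spread as widely. Syt17, a synaptotagmin of intracellular membranes, had a scaled signal of 39.0 with valproate, 17.3 with DMSO and 26.3 with lamotrigine. DMSO was the low array here, and the valproate signal was 2.26-fold above it (log2 1.17, technical SD 0.12), a difference above that of 98.6% of all genes. Across the 9 alternative ways of processing the arrays, its log2 difference ran from 0.52 to 1.52, that of Syt7 from 0.62 to 1.30 and that of Syt5 from -0.79 to -0.44.

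Syt11, which does not bind calcium and restrains vesicle retrieval, stood at 3644 with valproate, 5187 with DMSO and 5005 with lamotrigine. Again valproate was the low array, with a log2 difference of -0.51. Syt4, another form with altered calcium binding, stood at 203, 252 and 258, a difference of -0.31. Syt13 and Syt16 lay at 0.22 and 0.09 and Doc2g, a dim gene, at 0.33. Over all 11 synaptotagmins measured, values ran from -0.79 to 1.17 with an SD of 0.59, and 10 lay more than 2 technical SD from the median of all genes. Of all genes, 51.7% did so. The SD of the 13 syntaxins was 0.22.

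**Figure D2:**
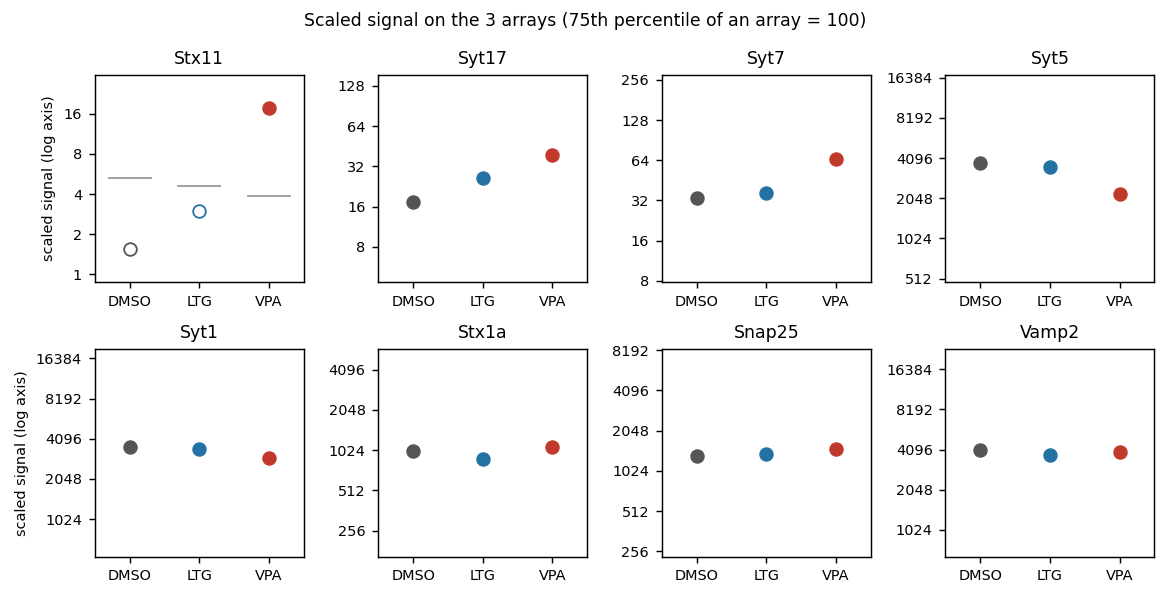
Scaled signal (log axis) of 8 genes on the DMSO, lamotrigine (LTG) and valproate (VPA) arrays, 1 array each. Open circles are not well above background, and the grey bars for Stx11 are the detection floors. Stx11 is filled only for valproate at 17.5, and the core SNAREs Stx1a, Snap25 and Vamp2 are nearly level.

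The vesicle proteins of the set were slightly lower with valproate, 2 of them by more than 2 technical SD from the median of all genes. Of all genes, 39.3% lay above 0. Among 40 other genes of the vesicle and its docking, outside the set, 18 lay above 0 and 22 below. All 6 vesicle proteins of the set that were measured lay below 0 and below the median of all genes. Their median was -0.19 and their range from -0.36 to -0.09. Against the median of all genes that held for 4 to 6 of the 6 or 7 measured under each alternative. With spike-in scaling or centring on detected probes, which add 0.35 and 0.28 to every gene, most stood above 0.

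Sv2a, the vesicle glycoprotein that binds the antiepileptic levetiracetam, stood at 419 with valproate, 537 with DMSO and 489 with lamotrigine, a log2 difference of -0.36. Synaptophysin (Syp), a major membrane protein of the vesicle, stood at 2941, 3614 and 3326, a difference of -0.30. Both were lowest with valproate and highest with DMSO. The synapsins tether vesicles in the reserve pool. Syn1 (-0.09), Syn2 (-0.18) and Syn3 (-0.19) lay closer to the median of all genes, as did Sv2b at -0.12. Syn1 and Syn2 turned to 0.04 and 0.03 with quantile normalization. Sv2c was above background with valproate only, at 6.07.

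The neuronal SNAREs lay slightly above the median of all genes, by 0.19 at their own median, and none reached 1.5-fold. Snap25, the plasma-membrane SNARE with a pair of SNARE motifs, stood at 1484 with valproate, 1317 with DMSO and 1371 with lamotrigine, a log2 difference of 0.17 with valproate. Stx1a, its membrane partner, stood at 1090, 1013 and 879, a difference of 0.10. Vamp2, the vesicle SNARE, stood at 3918, 4029 and 3718, a difference of -0.04. None of these 3 moved by more than 1.13-fold from DMSO with valproate. Vamp1, the vesicle SNARE of motor and some central synapses, lay at 0.42, with signals of 87.8, 65.7 and 75.5.

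Among the regulators of the SNARE complex the range was wider, from -0.44 to 0.54, around a median of -0.09. Unc13b (Munc13-2), which primes vesicles for fusion, stood at 428 with valproate, 294 with DMSO and 296 with lamotrigine. Only the valproate array was high, with a log2 difference of 0.54, just under 1.5-fold. Its relative Unc13a (Munc13-1), the main priming factor of glutamatergic synapses, stood at 56.8, 60.4 and 41.1, a difference of -0.09 with valproate. A second Unc13a probe stood at 21.7, 16.6 and 18.6, so the probes differ in which array is lowest.

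The complexins, small clamps of the SNARE complex, divided. Cplx2 stood at 3925 with valproate, 5037 with DMSO and 4714 with lamotrigine, a log2 difference of -0.36. Cplx1 stood at 2233, 2134 and 1962, a difference of 0.07. Cplx3 and Cplx4, the complexins of retinal ribbon synapses, were close to background: Cplx3 lay at -0.44 from DMSO with valproate, and Cplx4 was above background with lamotrigine only. The tomosyns, which bind syntaxin in place of Vamp2 and so limit release, lay at -0.27 (Stxbp5) and 0.00 (Stxbp5l), and amisyn (Stxbp6) at 0.05.

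At the active zone the large scaffolds lay below the median of all genes and the RIM genes above it, the latter by a margin that depended on the background correction. Bassoon (Bsn) stood at 493 with valproate, 570 with DMSO and 541 with lamotrigine, and Piccolo (Pclo) at 432, 499 and 420. Both had a log2 difference of -0.21. The 4 RIM genes, which tether calcium channels and vesicles at the release site, all lay above 0, from 0.15 for Rims3 to 0.32 for Rims4. With normexp background correction that did not hold: Rims1, Rims2 and Rims4 lay at -0.01, -0.03 and -0.10, and the RIM median came to 0.06 above that of all genes, beside 0.32 without it. Rims1 (14.7, 12 and 11.3), Rims2 (25.6, 22.7 and 26.3) and Rims4 (7.57, 6.04 and 6.12) were dim, where the technical SD was largest, and Rims3 was bright at 1112, 1001 and 976.

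The trafficking SNAREs that were detected on both arrays differed little, while Stx11, described after them, was detected with valproate only. None of the 22 measured on both arrays was 1.5-fold higher or lower with valproate, and their log2 differences ran from -0.40 to 0.42 with an SD of 0.22 and a median of 0.08. Stx3, of apical and dendritic membranes, lay highest at 0.42 (24.6, 18.4 and 22.0). Stx17, which fuses autophagosomes with lysosomes, lay at 0.36 (122, 94.8 and 86.3), and Stx6, of the trans-Golgi network and endosomes, at 0.34 (369, 292 and 329). On these probes Stx17 and Stx6 were highest with valproate.

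Vamp8, the vesicle SNARE of late endosomes and secretory granules, lay lowest at -0.40, standing at 151 under valproate, 199 under the vehicle and 211 under lamotrigine. Stx4a, the plasma-membrane syntaxin of most cells, lay at -0.29 (1418, 1732 and 1671). In both genes the valproate array alone was low. Stx2, Stx5a, Stx7, Stx8, Stx12, Stx16 and Stx18, which serve the plasma membrane, Golgi, endoplasmic reticulum and endosomes, lay from -0.14 to 0.17.

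Vamp3, Vamp4 and Vamp7, of endosomes, Golgi and lysosomes, and Vamp5 lay from 0.08 to 0.11. The widely expressed SNAP proteins lay at -0.06 (Snap23), -0.19 (Snap29) and -0.03 (Snap47). The syntaxin-binding proteins that are not specific to neurons lay at 0.32 (Stxbp2), 0.23 (Stxbp4) and -0.12 (Stxbp3a, now named Stxbp3). Nsf, the ATPase that recycles all SNARE complexes, lay at 0.18, Snap91, a clathrin adaptor and no SNARE, at 0.03, and Unc13d, the Munc13 of lymphocyte granules, at 0.32 with signals of 10.6 or less on the valproate and DMSO arrays.

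Stx11, the trafficking syntaxin best known for granule release by cytotoxic lymphocytes, was the gene that crossed the detection limit by the widest margin. Its scaled signal was 17.5 with valproate, 1.56 with DMSO and 2.97 with lamotrigine, and only the first was above background, where the detection floors were 3.88, 5.29 and 4.63. Set against those floors, the valproate signal was at least 3.30-fold higher than DMSO and at least 3.78-fold higher than lamotrigine. These bounds fell to 1.59-fold and 1.76-fold under the lowest alternative and reached 4.21-fold and 4.19-fold under the highest. Of the 909 genes of the array that were detected on 1 of the valproate and DMSO arrays, 41% had a bound of 1.5-fold or more in either direction. Stx11 is expressed by leukocytes. Of the 10 microglia markers, Cx3cr1, P2ry12, Trem2, C1qa and Tyrobp were detected on no array and Itgam, Csf1r, Tmem119, Cd68 and Aif1 on all 3. Their summed signal was 1657 with valproate, 1522 with DMSO and 1653 with lamotrigine. Most of it was Itgam, and the other 9 summed to 220, 258 and 255. The part of such cells in the Stx11 signal was not tested.

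The promoter of Stx11 is shown because the gene had the largest bound of the set. RefSeq gives it on GRCm38.p6 at chr10:12964260-12964509, minus strand, the 250 bases before the start of the gene, printed 5′ to 3′ with GGGCGG, the core of the GC box that Sp1 binds, in capitals on either strand.
Stx11 promoter: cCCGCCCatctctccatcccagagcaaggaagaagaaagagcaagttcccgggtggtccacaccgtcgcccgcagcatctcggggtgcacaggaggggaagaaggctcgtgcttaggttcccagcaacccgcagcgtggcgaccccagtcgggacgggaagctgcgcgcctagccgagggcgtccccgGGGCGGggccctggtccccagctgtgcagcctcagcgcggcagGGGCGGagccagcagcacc
It holds 3 matches, and 70% of its bases are G or C, where the median of all promoters was 52.4%. Of the 57 genes of the set with a promoter in the table, 68.4% held GGGCGG within 250 bases, beside 35.4% of all 27025 genes. The share was 74.1% of 27 release genes and 63.6% of 22 trafficking genes. The cyclic AMP response element TGACGTCA, searched on both strands, was found in 2 promoters of the set, Syn1 and Stxbp3a, which is 3.51% beside 1.77% of all genes. TTCAGCACC, the first part of the site of the neuronal repressor REST, was found in 1, Syn1. These are matches of letters only.

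Set side by side, the release genes lay lower than the trafficking genes with valproate, by a small margin. The median log2 difference was -0.06 over 34 release genes and 0.08 over 22 trafficking genes, a gap of -0.14, which ran from -0.14 to -0.07 over the alternatives. The release median was close to the median of all genes, 0.02 above it. It turned positive with quantile normalization, in the authors' deposited table and under the spike-in and centring scalings. It also did so when the other synaptotagmins, Doc2g and Nsf were counted as release genes. Its sign was kept in 5 of 10 alternatives. The trafficking median was 0.16 above that of all genes. The groups overlapped almost fully: 16 of the release genes lay above 0 and 18 below, and 12 of the trafficking genes above and 10 below, where 39.3% of all genes lay above. The SD over genes was 0.33 for release and 0.22 for trafficking genes. With the genes detected on 1 array added at their bounds (Stx11 among the trafficking genes, 2 among the release genes) the SDs were 0.33 and 0.41, so which group spread more turned on Stx11.

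**Figure D3:**
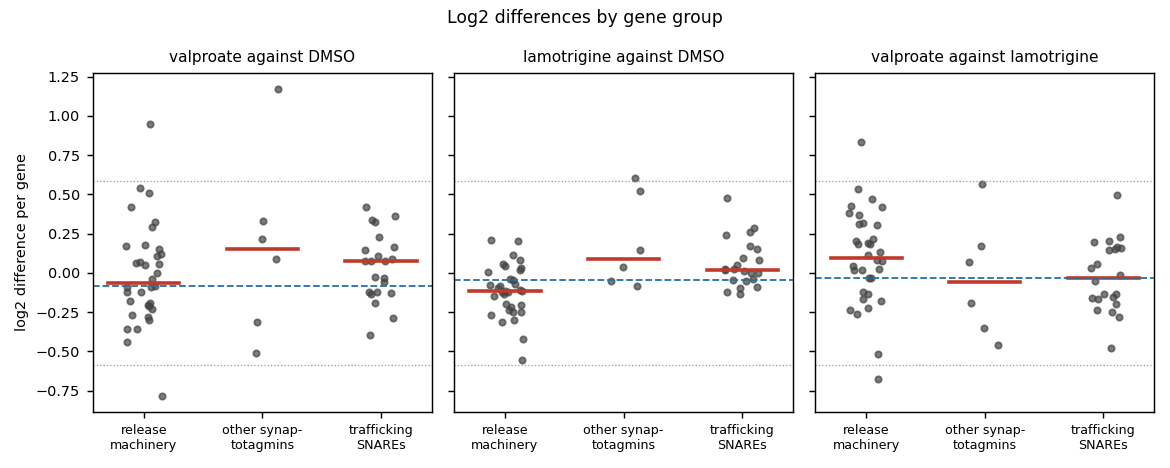
Log2 difference of each gene in the release, other synaptotagmin and trafficking groups for the 3 comparisons of arrays. Points are genes, red bars are group medians, the dashed line is the median of all genes and dotted lines are 1.5-fold. With valproate against DMSO the release genes reach from -0.79 to 0.95 and the trafficking genes stay between -0.40 and 0.42.

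Where several probes carried the name of 1 gene, they gave a second look at it, though the files did not place all of them at 1 site. Of 25 genes with more than 1 probe detected in the valproate and DMSO arrays, 16 had the same sign on all of them, and the range between probes had a median of 0.26. All 4 Pclo probes lay below 0 with valproate, from -0.70 to -0.21, as were all 3 Snap23 probes, from -0.73 to -0.06. A second Stx6 probe was at 0.68, above the 0.34 of the brighter one, and a second Snap29 probe at -0.48. Probes disagreed for Stxbp3a, from -0.27 to 0.49, for Unc13d, at 0.32 and -0.24, and for Unc13a, at -0.09 and 0.39. One Stx17 probe lay at -0.15, against 0.36 and 0.33 for the others, and a second Vamp4 probe at -0.18, against 0.08. Cplx2, Snap47, Stx18 and Stxbp5l also had probes on both sides of 0, so the probes of these 9 genes did not share 1 sign with valproate. For Cplx2 the only probe above 0, at 0.03, is placed on chromosome 5, and the probes placed on chromosome 13 all lay below 0. With lamotrigine, 10 of 25 genes had 1 sign on all detected probes and 15 did not, so directions there rest largely on the brightest probe.

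**Figure D4:**
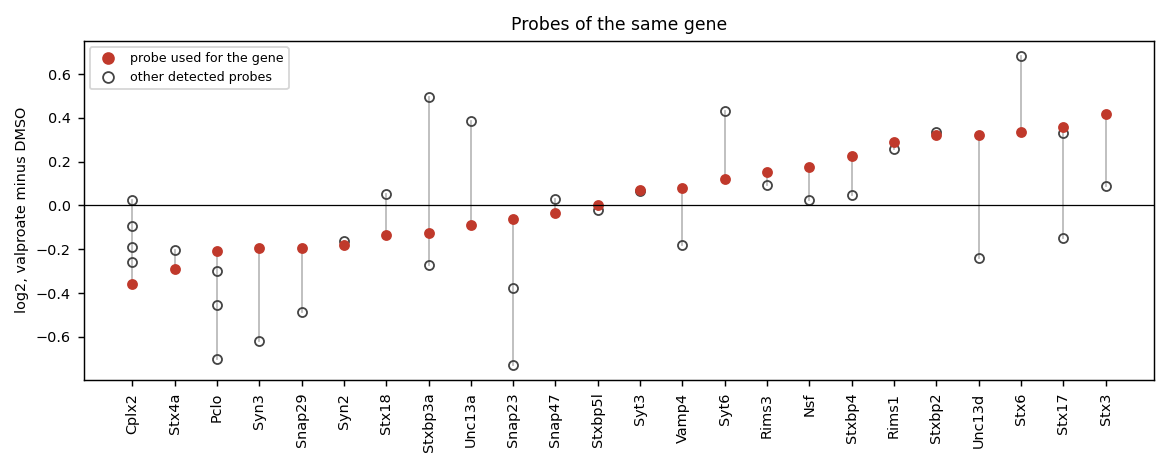
Log2 difference between the valproate and DMSO arrays for each detected probe of genes with more than 1 such probe. Filled points are the probe used for the gene, open points the others, and grey lines join probes of 1 gene. Pclo and Snap23 lie below 0 on every probe, and Stxbp3a and Unc13a have probes on both sides.

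With lamotrigine the differences from DMSO were smaller. Among 64 genes detected with lamotrigine and DMSO, Syt17 (1 gene) was higher by at least 1.5-fold and 0 were lower by as much. Of all 14340 genes, 1.12% were higher and 0.76% lower. Syt10, dim at 10.0 with lamotrigine and below background with DMSO, was at least 1.90-fold over DMSO. That bound ran from 1.18-fold to 2.18-fold over the alternatives. Of the 647 genes of the array detected on 1 of these arrays, 197 had a bound of 1.5-fold or more. The median of the set was -0.04 and its SD 0.21, beside -0.05 and 0.21 for all genes. The valproate and lamotrigine comparisons share the DMSO array, so a value of that array that was off would appear in both.

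Syt17 with lamotrigine was 1.52-fold above DMSO (log2 0.61, technical SD 0.24), from 0.20 to 0.81 over the alternatives. Unc13a was the lowest gene, at -0.56 (technical SD 0.12), a difference that its second probe, at 0.16, did not share. Stxbp5l followed at -0.42, with a signal of 53.1 where DMSO and valproate both gave 71.0, so that lamotrigine alone was low. Unc13d and Doc2g, both dim, lay at 0.53 and 0.52, and Stxbp4 at 0.48.

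Among the vesicle proteins all 6 lay below DMSO with lamotrigine too, from -0.30 for Sv2b to -0.07 for Syn3, all below the median of all genes, as were 4 to 6 of those measured under each alternative. Of Stx1a, Snap25 and Vamp2, the differences were -0.21, 0.06 and -0.12. The release genes had a median of -0.11, with 24 of 33 below 0, and the trafficking genes one of 0.02, with 8 of 22 below 0. Of all genes, 39.8% lay above 0. Against the median of all genes the release median was lower by 0.07 and the trafficking median higher by 0.07. The gap between the groups was -0.13 and ran from -0.14 to -0.11 over the alternatives.

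Between the drug arrays themselves, Syt7 was at least 1.5-fold higher with valproate (log2 0.83) and Syt5 at least 1.5-fold lower (-0.68), as 1 and 1 of 65 genes. Of all 14544 genes, 6.17% were higher and 5.84% lower by that fold. With spike-in scaling 5 members were higher and 0 lower, beside 9.91% and 3.67% of all genes. Syt17 (0.57), Unc13b (0.53), Stx17 (0.49), Unc13a (0.47) and Syt9 (0.42) followed on the upper side. Syt10 (-0.52), Vamp8 (-0.48) and Syt11 (-0.46) followed on the lower one. Cplx4 was above background with lamotrigine only, at least 1.58-fold over valproate. Of the 828 genes of the array detected on 1 of these arrays, 49.2% had a bound of 1.5-fold or more. The release median was 0.10 and the trafficking median -0.03, so the gap was 0.13, with 23 of 34 release genes above 0, beside 45.3% of all genes. The trafficking median was above 0 under the spike-in and centring scalings.

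Genes that work beside the set gave a frame for these values. Of 45 other proteins of the synaptic vesicle and its docking, 40 were measured with valproate and DMSO; 5 were at least 1.5-fold higher and 1 lower, beside 6.25% and 5.95% of all genes, with a median of -0.03. Slc18a3, the vesicular acetylcholine transporter, stood at 35.0 with valproate, 9.21 with DMSO and 9.02 with lamotrigine, a log2 difference of 1.93. Sytl4 (granuphilin), a Rab27 effector of secretory granules, stood at 29.9, 8.0 and 9.55, a difference of 1.90. Both were high with valproate alone.

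The other higher ones, named after their values were seen, were Cadps2 (0.79), which primes dense-core vesicles, Rab3d (0.67) and Sytl2 (0.63). Sytl3 was lower (-0.74), and Cadps, the neuronal relative of Cadps2, lay at -0.42, short of 1.5-fold. With lamotrigine 1 of the 40 was 1.5-fold higher, Sncg at 0.66, beside 1.12% of all genes, and the median was -0.11. Sncg was dim, at 12.4 with lamotrigine and 7.83 with DMSO.

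None of the 25 vesicle recycling genes passed 1.5-fold with valproate, beside 6.25% of all genes upward and 5.95% downward. Of the 25, 6 lay above 0 and 19 below, where 39.3% of all genes lay above. Their median was -0.09, close to that of all genes. Dnm1, the dynamin that pinches off endocytic vesicles, was lowest at -0.47 (4548 with valproate, 6310 with DMSO and 5447 with lamotrigine), followed by Hspa8, the chaperone that uncoats clathrin, at -0.42. Dnm3 (0.27) and Sh3gl3 (0.22) were highest. Of 20 SNAREs and fusion factors outside the name rule, 19 were measured and none passed 1.5-fold, beside the same shares of all genes. Their median was -0.11, with Use1 lowest at -0.52 and Bet1 highest at 0.37.

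The neuron markers lay lower than the release machinery with valproate. Their median was -0.30 over 15 genes. Nefm (0.60), 1 gene, was at least 1.5-fold higher. Tubb3 (-0.94), Nefh (-0.93), Dcx (-0.72) and Map2 (-0.64), 4 genes, were lower by as much. Of all genes, 6.25% were higher and 5.95% lower by that fold. The release median, at -0.06, was closer to that of all genes. With lamotrigine the neuron markers had a median of -0.19, with 14 of 15 below 0, where 39.8% of all genes lay above 0. Spike-in scaling adds 0.35 to every valproate difference and 0.20 to every lamotrigine one, so these marker medians and counts depend on the scaling. The astrocyte markers had a median of -0.52 with valproate and -0.03 with lamotrigine. The part of these marker shifts in the values of the vesicle and SNARE genes was not tested.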

How the data were processed

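Per the labels, TRIzol RNA was amplified and carried the Cy3 dye, 1 colour per array. Per the file headers, Feature Extraction 10.7.1.1 gave the deposited intensity per spot, background-subtracted and detrended without normalization between arrays, for probes placed on mm9. A table of quantile-normalized intensity was deposited too. Its 3 columns held the same sorted values within 0.031%, with a median of 22.6 in each; it was used as an alternative.

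Control and outlier spots were left out, spots of a probe averaged, and log2 signals set relative to each array's 75th percentile, which was 478 for valproate, 372 for DMSO and 388 for lamotrigine. Of the spots, 49.6% to 52.9% were well above background. A probe was detected where most of its spots were well above background, and a gene took the probe with the highest mean level. Differences cover genes detected on both arrays. For a gene detected on 1, the other array was set to the lowest detected signal or the gene's own, whichever was higher, which gives the bound. Genes were called at 1.5-fold. The number of arrays limits the precision, and no test was made.

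Probes were joined to genes by accession (27128), symbol (3564) or older symbol (569), the 124 probes of the set by the files' own names, and 24296 matched no gene and enter no gene count. Named with values were the core release genes, the 2 highest and 2 lowest of each role and of each companion list, and every member past 1.5-fold; other members are named to account for the set, and some are counted but not reported here. The members, roles and lists were chosen with earlier results of these data known, so patterns that repeat those results are not independent support. Scripts used Python 3.11.15, numpy 2.4.6, pandas 2.3.3, R 4.3.3 and limma 3.58.1 (normexp, offset 50), and were tested on simulated data. Alternatives were quantile normalization, spike-in scaling, centring on detected probes, normexp correction, the deposited table, no detection filter and detection on all arrays. Others were the average over a gene's detected probes, keeping outlier spots, a limit of 2-fold and one of 25% more. For the release median, the other synaptotagmins, Doc2g and Nsf were also counted as release genes. For the trafficking median, Stx11, Stx19, Vamp5 and Vamp8 were also left out.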

Additional observations from a re-analysis of the deposited data

How the results depend on the processing

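No gene difference called at 1.5-fold changed its sign under an alternative. That check covers called genes only, since no group median or gap reached 1.5-fold. The gap between the release and trafficking medians kept its sign in all 9 alternatives of each comparison. Centring and spike-in scaling could not change it, nor could keeping outlier spots, of which the set had 0. The deposited table is itself quantile-normalized, so it largely repeats that alternative. What moved were medians against 0, counts and the signs of small differences. The difference of 30 of 65 members changed sign under at least 1 alternative for valproate against DMSO, 27 of 64 for lamotrigine against DMSO and 12 of 65 for valproate against lamotrigine; leaving aside centring and spike-in scaling, the numbers were 14, 15 and 6. Rims4 went from 0.32 to -0.10, Rims1 from 0.29 to -0.01 and Unc13d from 0.32 to -0.02 with normexp (valproate against DMSO), and Pclo from 0.04 to -0.23 with the mean of detected probes (valproate against lamotrigine). Valproate against DMSO: the release median was 0.039 with quantile normalization and 0.039 in the deposited table, 0.22 centred on detected probes and 0.29 with spike-in scaling, and the trafficking median was 0.36 and 0.43 under the last pair. Genes higher numbered 1 at 2-fold, 12 at a 25% difference, 12 when centred and 13 with spike-ins. They numbered 1 with normexp and 6 with no detection filter. Genes lower numbered 0 at 2-fold, 6 at a 25% difference, 0 when centred or with spike-ins, and 3 with no filter. With normexp 3.313% of all genes were higher. With no filter 9.015% of all genes were higher and 10.66% lower. Lamotrigine against DMSO: the release median was -0.016 with quantile normalization and in the deposited table, 0.067 centred and 0.088 with spike-ins, and the trafficking median 0.20 and 0.22 under the last pair. Genes higher numbered 0 at 2-fold, with quantile normalization, normexp and in the deposited table, 4 at a 25% difference, centred and with spike-ins, and 6 with no filter; genes lower numbered 2 at a 25% difference and 1 with no filter. Of all genes, 3.32% were higher when centred, 3.73% with spike-ins and 6.65% with no filter, where 5.18% were lower. Valproate against lamotrigine: the release median was 0.20 centred and 0.25 with spike-ins, and the trafficking median 0.065 and 0.11. Genes higher numbered 0 at 2-fold and with normexp, 9 at a 25% difference and 2 with quantile normalization and in the deposited table. They numbered 4 when centred or with no filter and 5 with spike-ins. Genes lower numbered 0 at 2-fold, centred and with spike-ins, 5 at a 25% difference and 6 with no filter. Of all genes, 3.69% were higher with normexp and 6.9% with quantile normalization and in the deposited table. When centred 8.57% were higher and 4.19% lower, and with spike-ins 9.9% and 3.7%. With no filter 8.22% were higher and 11.4% lower. For the 25% limit no share of all genes was computed in any comparison.

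Centring and spike-in scaling add 1 constant to every gene, which by construction moves medians and counts and leaves gaps between genes as they were; the spike-in scale rests on 6 of 10 spike-in probes. The cause of the other moves was not tested. Dim genes (scaled signal under 25, among them Stx11, Rims1, Rims4, Doc2g and Unc13d) are the least certain, with a technical SD of 0.24. No paired analysis was possible because each treatment had 1 array. No array could be left out, since that would leave no comparison.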

Other observations

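The 4 Syn3 probes, spread along the gene on mm9 chromosome 10, gave different patterns. The brightest, at chr10:85518277-85518336, stood at 37.4 with valproate, 42.8 with DMSO and 40.8 with lamotrigine. The probe at chr10:85586568-85586627 was low with valproate, at 14.1 beside 21.6 and 23.9, a log2 difference of -0.62 from DMSO. The probe at chr10:85813890-85813949 was above background with valproate only, at 14.5, at least 2.05-fold over DMSO. The probe at chr10:85754913-85754972 was above background with lamotrigine only, at 13.7, at least 2.58-fold over DMSO and 3.52-fold over valproate. Each of these last values rests on 1 spot on 1 array.

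The 5 Cplx2 probes are placed by the files at 3 sites: 3 near chr13:54481316-54485259, 1 at chr13:108816800-108816859 and 1 at chr5:112438094-112438174. The 3 at the first site lay at -0.36, -0.26 and -0.19 with valproate, the other chromosome 13 probe at -0.09 and the chromosome 5 probe at 0.03. A further Stx3 probe, printed 10 times on each array, was above background on none, while the other 2 Stx3 probes lay at 0.42 and 0.09.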
